A study of Mus musculus with 3 samples.

Results

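Elastic fibres and microfibrils are the extensible part of the extracellular matrix, and 10 genes that encode their main proteins were examined in sorted cells of the mouse leptomeninges, the pia and arachnoid layers around the brain. The genes were taken by symbol from 46983 gene rows, by a rule that names no measured value. They are elastin (Eln), the fibrillins Fbn1 and Fbn2, the fibulins Fbln1, Fbln2, Fbln5 and Efemp1, and the microfibril-associated genes Mfap2, Mfap4 and Mfap5. Each symbol was found on exactly 1 row. The data are counts of RNA sequencing reads per gene in 3 libraries of 1 group, the pia-enriched fraction of vehicle-treated mice. The labels give the titles s_veh1, s_veh2 and s_veh3, called libraries 1, 2 and 3 here. They state no strain, genotype, sex, age or sort marker, nor what the vehicle was or whether mice were pooled, so the spread between libraries may be technical. With no second group there was no treatment comparison, and the questions here are how high each gene stood, in what order, and how much it varied between libraries.

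A microfibril is a string of fibrillin molecules secreted by the cell, to which smaller glycoproteins bind. In an elastic fibre, soluble elastin is deposited on a microfibril scaffold with the help of fibulins and is then crosslinked by lysyl oxidases. Microfibrils without elastin also occur in many tissues, where they anchor cells and hold latent TGF-beta. Fibroblasts and vascular smooth muscle cells are the usual sources of these proteins, and both cell types occur in leptomeninges with their vessels.

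Libraries 1, 2 and 3 held 21002860, 28704952 and 25338616 reads assigned to genes. Pearson correlations of log2(CPM + 1) across 14409 genes, which are not independent replicates, were 0.933 and 0.941 between library 1 and the others and 0.975 between libraries 2 and 3, so library 1 stood apart. All 6 fibroblast markers listed reached a mean of 1 count per 1000000 (CPM), and their summed level was 23467, 29100 and 25292 CPM in libraries 1, 2 and 3. Of 7 markers listed for leptomeningeal fibroblasts, 6 reached that level, with sums between 1632 and 1723 CPM. Lama1 was below that level and had no count in library 1. Single markers moved more than the sum: Slc47a1 was at 844, 1239 and 1054 CPM and Ptgds at 647, 239 and 518 CPM. Library 1 was the lowest for 5 of the 7, against 40.4% of all tested genes. All 8 smooth muscle and pericyte markers were also present, and their sum was 2553, 2274 and 4469 CPM. All 5 Schwann cell markers were present as well, at a sum of 2989, 2613 and 4377 CPM, and like the smooth muscle markers they were highest in library 3. The 6 endothelial markers summed to between 65.4 and 101 CPM. The 4 dural and arachnoid markers summed to between 78.8 and 92.5 CPM. Sums were between 66.1 and 86.8 CPM for 4 neuron markers and between 16.7 and 38.1 CPM for 4 astrocyte markers. The 6 macrophage and microglia markers summed to 10.9, 236 and 682 CPM, and 5 choroid plexus markers to 91.2, 3185 and 4867 CPM, both lowest in library 1. The fraction was therefore rich in fibroblast transcripts but also held transcripts of vessel wall, Schwann and other cells. In such bulk RNA, fewer cells of a type and less RNA per cell cannot be told apart.

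The fibulins gave the widest contrast of levels between relatives whose promoter sequence was at hand, and the 250 bases before the start sites of its extremes are shown for that reason. Efemp1 was the highest fibulin and Fbln2 the lowest. Both sequences are from RefSeq on GRCm38.p6, on the plus strand, and read 5′ to 3′. The Efemp1 window lies at chr11:28852955-28853204 and the Fbln2 window at chr6:91212514-91212763. The Fbln2 window precedes a RefSeq start site but lies inside the Fbln2 gene of GENCODE, which begins at 91212455. Capitals mark a GC box (GGGCGG or its complement CCGCCC) or a loose AP-1-like pattern (TGANTCA on either strand, where N is any base).
Efemp1: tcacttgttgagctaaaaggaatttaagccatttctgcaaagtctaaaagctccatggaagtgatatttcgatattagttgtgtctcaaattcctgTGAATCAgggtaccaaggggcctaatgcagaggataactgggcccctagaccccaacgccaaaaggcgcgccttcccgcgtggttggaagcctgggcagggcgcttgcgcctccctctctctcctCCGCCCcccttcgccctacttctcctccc
Fbln2: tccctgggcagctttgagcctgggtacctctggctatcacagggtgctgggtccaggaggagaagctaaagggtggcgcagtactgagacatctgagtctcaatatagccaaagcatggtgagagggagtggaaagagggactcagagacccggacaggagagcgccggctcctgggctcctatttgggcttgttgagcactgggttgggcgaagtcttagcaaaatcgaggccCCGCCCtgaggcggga

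Both windows held 1 GC box, which 32.7% of all 32851 windows of this length hold on either strand. The loose AP-1-like pattern, here TGAATCA, stood in the Efemp1 window and in none of the other 8 windows, against 6.75% of all windows. The RefSeq table gave 9 windows for 6 of the 10 genes (Fbn1, Fbln1, Fbln2, Fbln5, Efemp1 and Mfap2), and none for Eln, Fbn2, Mfap4 and Mfap5. A GC box occurred in 6 of the 9 windows, a CCAAT box (CCAAT, either strand) in 2 against 33.8% of all windows, and a TATA box (TATAAA, either strand) in 0 against 12.4%. Some of these windows overlap, because a gene can have several start sites. A match is a description of the letters and not a binding site.

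All 10 genes passed the filter on low counts, and 9 of them had a mean of at least 1 CPM, against 30.2% of all gene rows. Fbn2 was the exception. Among the 14409 genes that passed the filter, 13746 reached 1 CPM, so 9 of 10 did not set these genes apart from them. The median log2(CPM + 1) of the 10 genes was 7.91, against 4.18 over the 14409 genes that passed the filter. Together they took 1.44%, 1.04% and 0.775% of gene counts in libraries 1, 2 and 3 (1.08% ± 0.34, SD, n = 3), and the mean was 0.905% without library 1. Most of this was a single gene, Mfap4: the other 9 genes took 0.337%, 0.324% and 0.273%. Levels of different genes were compared as CPM per kilobase of exon. This scale divides by length but does not remove trends with base composition or length, such as those given below for library 1. On it, Mfap4 made up 76.8% ± 4.3 of the summed level of the 10 genes and the fibulins 14.5% ± 4.2 (SD, n = 3). Elastin made up 0.493% ± 0.19 and the fibrillins 0.341% ± 0.15 (SD, n = 3).

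**Figure D1:**
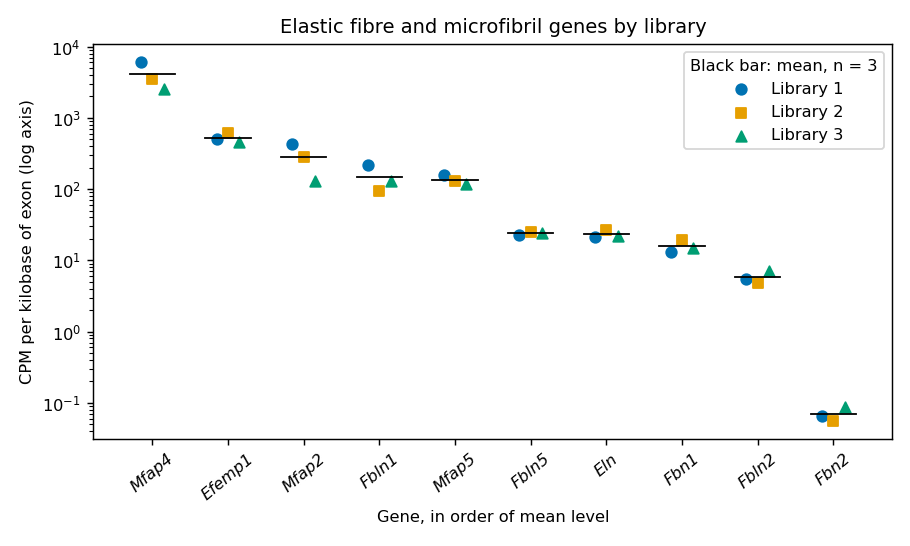
Level of each of the 10 genes in CPM per kilobase of exon (log axis), with 1 point per library and a bar at the mean of 3 libraries, ordered by mean level. Mfap4 lies above every other gene in each library and Fbn2 below every other gene, and the points of Fbln1 and Mfap5 overlap, as do those of Fbln5 and Eln.

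Elastin is the rubber-like core protein of the elastic fibre. Eln (ENSMUSG00000029675.12, chromosome 5, 134702593 to 134747323, minus strand of GRCm38) was at 170, 216 and 178 CPM in libraries 1, 2 and 3 (188 ± 24.6, SD, n = 3). Its highest library was 1.27 times its lowest, a range of 0.34 on the log2(CPM + 1) scale. This range was 0.61 after the trends with G+C content and exon length, described below, were removed. Smooth muscle markers did not have the same order across libraries: Acta2, the actin of vascular smooth muscle, was at 1376, 1154 and 2342 CPM and Myh11, its myosin heavy chain, at 329, 385 and 723 CPM. Both were highest in library 3, where Eln was 178 CPM. The summed fibroblast markers, at 23467, 29100 and 25292 CPM, did have the order of Eln, though Col1a2 and Dcn on that list did not. Which cells the Eln transcripts came from was not tested. Per kilobase of exon Eln stood at 23.3 ± 3.04, higher than 85.6% of the tested genes.

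The fibrillins form the backbone of microfibrils, and Fbn1 is the form that predominates in adult tissue while Fbn2 is mainly known from development. Fbn1 (ENSMUSG00000027204.13, chromosome 2, 125300594 to 125507993, minus strand) was at 157, 237 and 182 CPM (192 ± 40.9, SD, n = 3). It was lowest in library 1 and highest in library 2, as was Eln. Fbn2 (ENSMUSG00000024598.8, chromosome 18) had only 17, 22 and 30 counts in libraries 1, 2 and 3. These are 0.859, 0.739 and 1.16 CPM, with exact 95% Poisson intervals of 0.5003 to 1.38, 0.463 to 1.12 and 0.780 to 1.65 CPM. The intervals cover counting error only and overlap, so no difference between libraries was detectable for Fbn2 at this depth. Its counts were above the 3 that a count of 0 allows in each library.

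Per kilobase of exon, Fbn1 was at 15.9 ± 3.37 and Fbn2 at 0.0695 ± 0.016 (SD, n = 3). The difference in log2(CPM per kilobase + 1), Fbn1 minus Fbn2, was 3.96 ± 0.29 and had the same sign in 3 of 3 libraries. The pseudocount of 1 understates this difference, which was 6.54 with a pseudocount of 0.1. An exact two-sided sign-flip permutation test over libraries gave p = 0.25, the smallest value that 3 libraries allow. The same p, and an adjusted value of 0.25, was found for each of the 10 pairs within structural classes.

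Fibulins are calcium-binding glycoproteins that link microfibrils, elastin and basement membranes. Efemp1, also known as fibulin-3 (ENSMUSG00000020467.15, chromosome 11, 28853204 to 28926743, plus strand), was at 1018, 1241 and 945 CPM (1068 ± 154, SD, n = 3). It was the highest fibulin in each library. Fbln1, a fibulin of basement membranes and vessel walls that also joins elastic fibres (ENSMUSG00000006369.14, chromosome 15, 85205949 to 85286535, plus strand), was at 941, 415 and 573 CPM (643 ± 270). Library 1 was high and library 2 low, a 2.27-fold range. Without library 1 the mean of Fbln1 was 509 CPM.

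Fbln5 binds elastin and cell-surface integrins and is needed for elastic fibre assembly. Fbln5 (ENSMUSG00000021186.8, chromosome 12, 101746565 to 101819055, minus strand) was at 155, 175 and 166 CPM (165 ± 10.2, SD, n = 3). It was the steadiest of the 10 genes, with a coefficient of variation of 6.20% and a 1.13-fold range. Fbln2, which binds fibrillin, elastin and laminins (ENSMUSG00000064080.12, chromosome 6, 91212455 to 91272540, plus strand), was at 34.8, 30.7 and 44.6 CPM (36.7 ± 7.13). It was the lowest fibulin in each library.

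Per kilobase of exon the fibulins were at 524 ± 75.7 for Efemp1, 147 ± 61.9 for Fbln1, 23.9 ± 1.48 for Fbln5 and 5.76 ± 1.12 for Fbln2 (SD, n = 3). All 6 pairs kept this order in 3 of 3 libraries. Efemp1 exceeded Fbln2 by 6.28 ± 0.42 on the scale of log2(CPM per kilobase + 1) (6.49 with a pseudocount of 0.1), and exceeded Fbln5 by 4.39 ± 0.16. Efemp1 exceeded Fbln1 by 1.90 ± 0.73, the closest of the 3 differences from Efemp1 and the one that varied most between libraries, being 1.21 in library 1 and 2.67 in library 2. Fbln1 exceeded Fbln5 by 2.49 ± 0.68, and Fbln5 exceeded Fbln2 by 1.89 ± 0.27. With the exact sign-flip permutation test at its floor for each pair, the size against the SD is the measure of separation, and each of these differences exceeded its SD.

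The 3 Mfap genes share a name rather than a family. Mfap2 and Mfap5 encode the small microfibril-associated glycoproteins MAGP-1 and MAGP-2, which bind fibrillin, while Mfap4 encodes a fibrinogen-related glycoprotein that binds elastin, fibrillin and collagen. Mfap4 (ENSMUSG00000042436.12, chromosome 11, 61485431 to 61488900, plus strand) was at 11734, 6859 and 4905 CPM (7833 ± 3517, SD, n = 3). By mean CPM it ranked 8 among all gene rows. Library 1 was high and library 3 low, and without library 1 the mean was 6059 CPM. Mfap4 was above Col1a2, a chain of type I collagen at 11071 CPM, in library 1 but below it in libraries 2 and 3, where Col1a2 was at 12570 and 10851 CPM. CPM are not divided by length. Per kilobase of exon, Mfap4 was at 4075 ± 1830 and Col1a2 at 925 ± 75.3.

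Mfap2 (ENSMUSG00000060572.17, chromosome 4, 141010418 to 141015984, plus strand) was at 529, 339 and 155 CPM (341 ± 187, SD, n = 3). Its 3.41-fold range was the widest of the 10 genes, with library 1 high and library 3 low. Mfap5 (ENSMUSG00000030116.14, chromosome 6, 122505845 to 122529290, plus strand) was at 574, 470 and 424 CPM (489 ± 76.9). All 3 Mfap genes were thus highest in library 1 and lowest in library 3, an order that 17.7% of the tested genes had. The 3 genes were singled out for this order after their values were seen.

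Mfap4 exceeded Mfap2 by 3.93 ± 0.34 and Mfap5 by 4.81 ± 0.41 on the scale of log2(CPM per kilobase + 1), in 3 of 3 libraries. Mfap2 and Mfap5 were closer. Per kilobase they were at 281 ± 154 and 136 ± 21.4, and Mfap2 exceeded Mfap5 by 1.44, 1.09 and 0.11 in libraries 1, 2 and 3 (0.88 ± 0.69, SD, n = 3; exact sign-flip permutation p = 0.25). When the longest transcript was used as the length the difference was 0.53 ± 0.69, smaller than its SD. The order of Mfap2 and Mfap5 was therefore not resolved.

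From highest to lowest mean of log2(CPM per kilobase + 1), the order of all 10 genes was Mfap4 (11.90 ± 0.63), Efemp1 (9.03 ± 0.20), Mfap2 (7.97 ± 0.89), Fbln1 (7.13 ± 0.59), Mfap5 (7.09 ± 0.22), Fbln5 (4.64 ± 0.09), Eln (4.59 ± 0.18), Fbn1 (4.06 ± 0.28), Fbln2 (2.75 ± 0.23) and Fbn2 (0.10 ± 0.02). Of the 9 neighbouring pairs, 6 kept their order in 3 of 3 libraries with a mean difference above its SD. The other 3 pairs did not. Mfap2 exceeded Fbln1 in libraries 1 and 2 but was 0.04 lower in library 3, a difference of 0.84 ± 0.81. Fbln1 and Mfap5 differed by 0.04 ± 0.45, and Fbln5 and Eln by 0.04 ± 0.10. The steps above 2 on this scale were from Mfap4 to Efemp1, 2.87 ± 0.64, from Fbln2 to Fbn2, 2.65 ± 0.21, and from Mfap5 to Fbln5, 2.45 ± 0.29. Their ranking depended on the pseudocount: at 0.1, chosen after seeing the data, the step from Fbln2 to Fbn2 was 5.10 ± 0.13 and the largest, and that from Mfap4 to Efemp1 was 2.87 ± 0.64.

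Gene length set part of this order. The exons of Eln cover 8098 bases in GENCODE, but its longest transcript has 3853. With the longest transcript, Eln stood at 48.9 ± 6.39 CPM per kilobase and exceeded Fbln5 by 0.76 ± 0.11, so their order turned on the length used. Mfap5 likewise had 3589 exon bases and a longest transcript of 2491, and it then stood 0.23 ± 0.45 above Fbln1, which is within the SD.

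**Figure D2:**
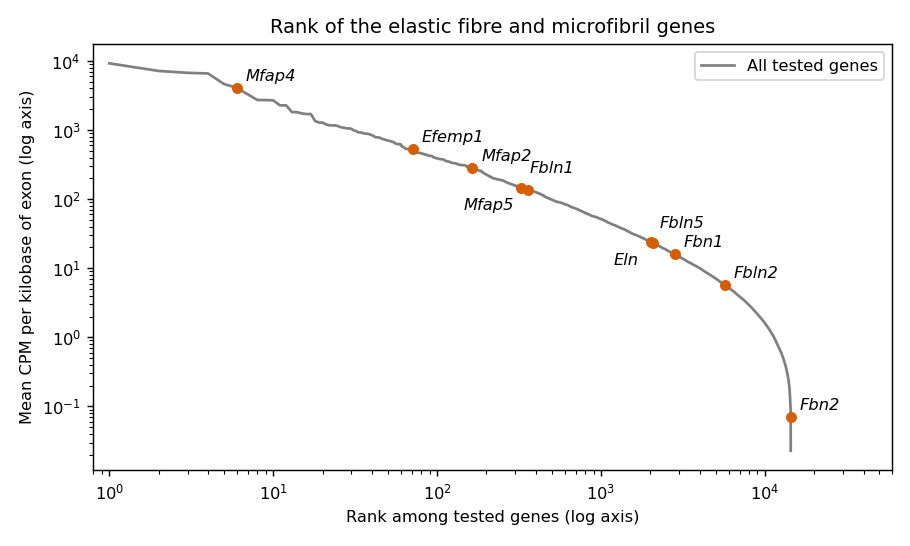
Mean CPM per kilobase of exon (log axis) against rank among the tested genes (log axis), with the 10 genes as points on the curve of all tested genes. Mfap4 lies near the top at rank 6, Efemp1 at rank 71, and Fbn2 in the tail at the right.

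Read against all tested genes on the scale per kilobase, Mfap4, Efemp1, Mfap2, Fbln1 and Mfap5 stood above 99.96%, 99.5%, 98.9%, 97.8% and 97.5% of them. Fbln5, Eln and Fbn1 stood above 85.95%, 85.6% and 80.3%. Fbln2 stood above 60.4%, near the middle, and Fbn2 above 0.0835%.

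Variation between libraries was tested next with edgeR's goodness-of-fit test, a chi-square on the spread of a gene's counts around its mean at the dispersion typical of its abundance, with Benjamini-Hochberg adjustment over 14409 genes. At an adjusted p threshold of 0.05, 0 of the 10 genes were called variable, against 0.437% of all tested genes. At an unadjusted threshold of 0.05 it was 1 of 10, against 7.04% of all genes. That gene was Mfap2 (unadjusted p = 0.0202, adjusted p = 0.489 in edgeR, between 0.369 and 0.998 over 9 alternatives). The median range between the highest and lowest library was 0.48 on the log2(CPM + 1) scale, against 0.67 over all tested genes. These ranges were not matched for abundance: the median log2(CPM + 1) was 7.91 for the 10 genes and 4.18 over all tested genes. A p that misses the threshold does not show equal levels: in simulated counts the test recovered 124 of 200 genes changed 8-fold in a single library, and the ranges here were smaller than that.

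**Figure D3:**
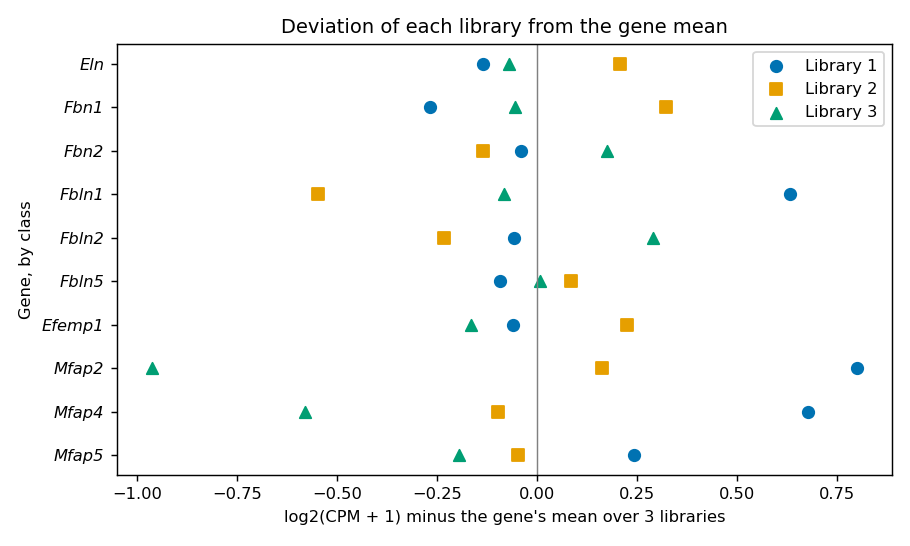
Deviation of log2(CPM + 1) in each library from the gene's mean over 3 libraries, for the 10 genes in order of class. Mfap2, Mfap4 and Mfap5 have library 1 at the right and library 3 at the left, Eln and Fbn1 have library 2 at the right and library 1 at the left, and Fbln5 has its 3 points closest together.

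The genes did not move as a block. Library 1 was highest in 4 of them (Fbln1, Mfap2, Mfap4 and Mfap5), against 39.6% of all tested genes, and lowest in 3 (Eln, Fbn1 and Fbln5), against 40.4%. Library 2 was highest in 4 genes and library 3 in 2. On the log2(CPM + 1) scale the difference of library 1 from the mean of the others was 1.20 for Mfap2, 1.02 for Mfap4, 0.95 for Fbln1 and 0.36 for Mfap5. It was -0.40 for Fbn1 and -0.20 for Eln, and between -0.14 and -0.06 for the other 4 genes.

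Base composition moved with library 1 across all genes, so it is given beside these differences. Over 14375 genes the difference of library 1 from the others had a Spearman coefficient of 0.608 with the G+C content of the longest transcript, given as a description across genes. With gene length the coefficient was -0.302. Of 10 equal groups of genes ordered by G+C content, the richest had a median content of 59.4% and a median difference of 0.36, and the poorest had 39.9% and -1.06. Mfap2 had the highest G+C content of the 10 genes, 59.6%, and the largest difference. Eln had nearly the same content, 58.8%, and lay at -0.20. Efemp1 had the lowest, 44.9%, and lay at -0.09. After the trends with G+C content and exon length were removed, the difference was 0.67 for Mfap2, 0.67 for Mfap4, 0.69 for Fbln1 and 0.46 for Mfap5, and it was -0.47 for Fbn1 and -0.46 for Eln. Those 6 genes kept their direction, as did Fbln2, which went from -0.09 to -0.34, and Fbn2, from -0.06 to -0.10. Fbln5 and Efemp1 turned from -0.14 and -0.09 to 0.15 and 0.24.

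**Figure D4:**
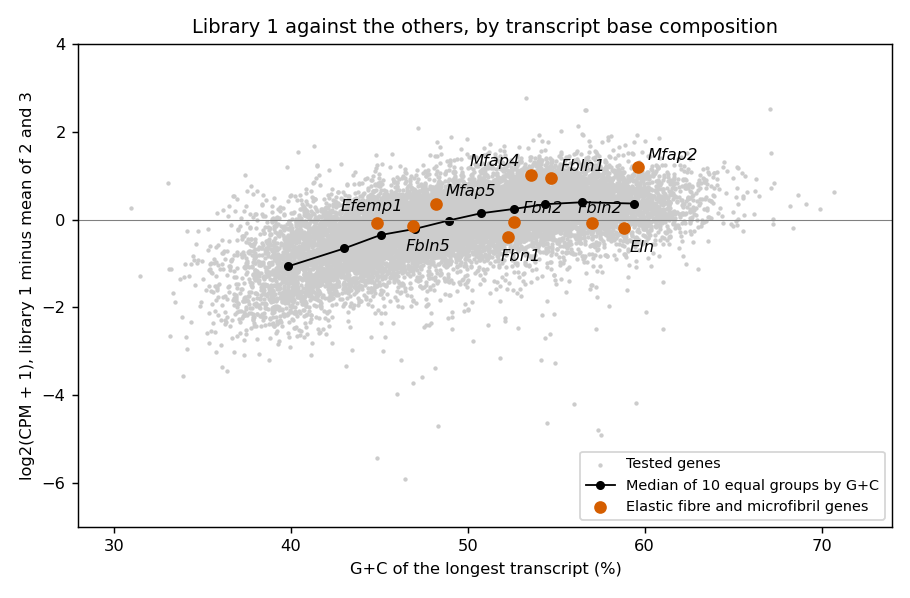
Difference of library 1 from the mean of libraries 2 and 3 on the log2(CPM + 1) scale, against the G+C content of the longest transcript in percent, for the 10 genes (orange), all tested genes (grey) and the median of each of 10 equal groups of tested genes (black line). Mfap2, Mfap4, Mfap5, Fbln1, Fbln5 and Efemp1 lie above the line, whereas Eln, Fbln2, Fbn1 and Fbn2 lie below it.

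The counting could touch some of these values. Fbn1 shares 2442 exon bases, 20.1% of its total, with the antisense gene Gm9913, which had 0, 0 and 1 counts. Mfap4 shares 89 exon bases with Mapk7 on the other strand, which had 1833, 1744 and 1121 counts, few beside those of Mfap4. The strand setting is not given in the sources used here, and without strand, reads in such stretches cannot be told apart and may go uncounted. Eln and Fbn2 overlap antisense or noncoding genes with at most 11 counts in any library.

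Other genes of the elastic fibre pathway were examined as 10 lists with 52 genes, all found in the table. Of these, 47 had a mean of at least 1 CPM and 46 were tested. The test called 2 of the 46 variable between libraries, against 0.437% of all tested genes, and 44 did not pass. Of the 2 called, 1 was lowest and 1 highest in library 1. Of the 63 genes called among all tested genes, 55 were lowest in library 1.

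Lysyl oxidases, which crosslink elastin and collagen, were led per kilobase by Loxl1, the family member most tied to elastic fibres, at 43.1 ± 11.7, then Loxl3 at 24.8 ± 9.06 and Lox at 18.9 ± 10.6 (SD, n = 3). Lox was at 32.3, 125 and 113 CPM, low in library 1, whereas Loxl1 was at 186, 127 and 113 CPM, high in library 1. Loxl4 had a mean under 1 CPM. None of the 4 tested lysyl oxidase genes was called by edgeR. Lox was the 1 gene with an unadjusted p under 0.05, and its adjusted p in edgeR was 0.314. The latent TGF-beta binding proteins, which are relatives of fibrillin, were all 4 expressed, with Ltbp2 at 19.0 ± 6.55, Ltbp3 at 14.7 ± 1.07 and Ltbp4 at 11.1 ± 5.46 CPM per kilobase, levels near that of Fbn1 at 15.9.

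Among other fibulin-related genes, Efemp2, also known as fibulin-4 and required for elastin crosslinking, was at 518, 342 and 292 CPM, and its level of 101 ± 31.4 per kilobase lay between those of Mfap5 and Fbln5. Fbln7 was at 25.6 ± 1.96 and Hmcn1 at 0.720 ± 0.43 CPM per kilobase, and Hmcn2 had a mean under 1 CPM. Emilin1, a glycoprotein at the interface of elastin and microfibrils, was at 1224, 1004 and 891 CPM, or 211 ± 34.4 per kilobase, with Mmrn2 at 2.34 ± 0.94 and Emilin3 at 0.382 ± 0.36. Of the 9 ADAMTS and ADAMTSL genes, whose proteins bind fibrillin or act on its assembly, Adamtsl1 led at 25.3 ± 4.92, followed by Adamtsl3 at 15.5 ± 2.56 and Adamts10 at 15.1 ± 3.66 CPM per kilobase. None of the 16 tested genes of these 3 lists was called variable by edgeR, and 1 (Emilin3) had an unadjusted p under 0.05.

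**Figure D5:**
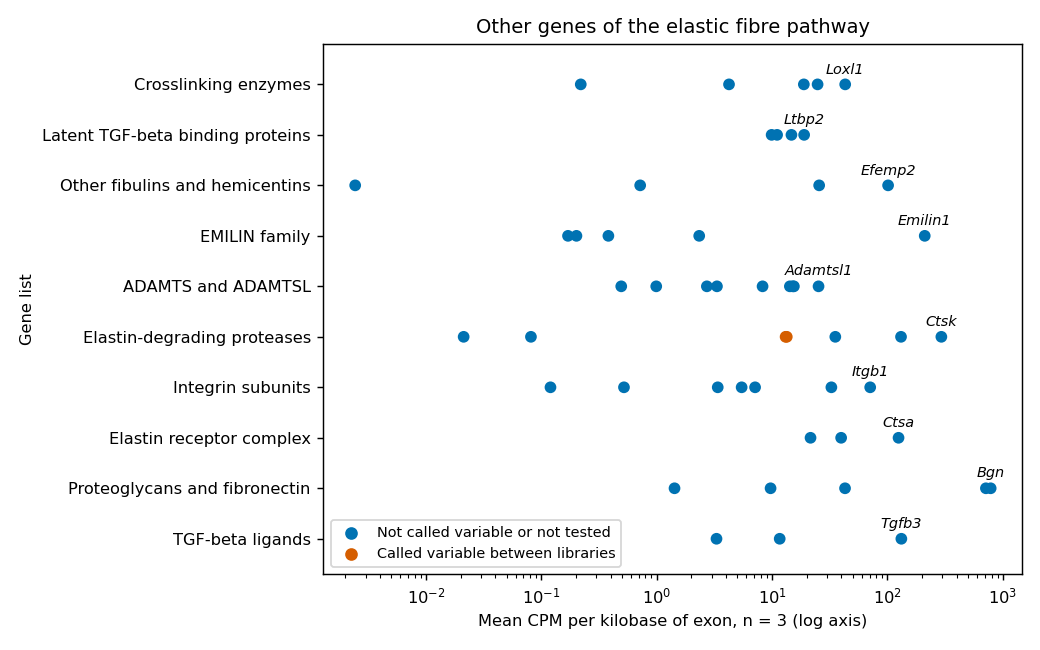
Mean CPM per kilobase of exon (log axis) of the other elastic fibre genes, with 1 point per gene, 1 row per list and the highest gene of each row named. The 2 genes called variable between libraries, Mmp9 and Ctss, lie almost on top of each other at 13.1 and 13.4 in the row of elastin-degrading proteases.

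Both calls fell among the 5 tested elastin-degrading proteases. Mmp9, a secreted gelatinase, was at 88.6, 39.8 and 10.9 CPM in libraries 1, 2 and 3 (edgeR adjusted p = 0.0354). The call was made in 4 of 9 alternatives, and it was lost with plain totals (adjusted p = 0.0648), with a common dispersion (adjusted p = 0.105), and without libraries 1, 2 or 3 in turn (edgeR adjusted p = 0.0576, 0.0532 and 0.998). Ctss, a lysosomal protease of macrophages that is also on the macrophage list, was at 0.606, 14.6 and 39.5 CPM (edgeR adjusted p = 5.7e-06). It was called in 7 of 9 alternatives and lost without library 1 (adjusted p = 0.269 in edgeR) and without library 3 (adjusted p = 0.116 in edgeR). Its order across libraries was that of the summed macrophage and microglia markers, a sum that includes Ctss itself. The summed choroid plexus markers (91.2, 3185 and 4867 CPM) and lymphocyte markers (2.93, 38.6 and 39.7 CPM) had the same order. The part of any of these cells in the Ctss level was not tested. The most abundant proteases per kilobase were Ctsk at 293 ± 69.04, Mmp2 at 131 ± 26.1 and Mmp14 at 35.4 ± 10.6, and Mmp12 and Elane had means under 1 CPM.

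Integrin subunits that bind fibrillin or fibulin-5 were led by Itgb1 at 70.9 ± 22.2 CPM per kilobase, then Itgb5 at 32.7 ± 10.8 and Itga5 at 7.13 ± 1.80, and Itgb6 had a mean under 1 CPM. Of the elastin receptor complex, Ctsa was at 125 ± 30.7, Glb1 at 39.7 ± 4.53 and Neu1 at 21.6 ± 4.46 CPM per kilobase. Among matrix partners of microfibrils, the proteoglycans Bgn and Dcn were at 785 ± 78.0 and 714 ± 95.9 and fibronectin (Fn1) at 42.9 ± 8.48 CPM per kilobase. Only Mfap4 of the 10 genes had a higher mean per kilobase than Bgn and Dcn. Among TGF-beta ligands, which microfibrils hold in latent form, Tgfb3 was at 132 ± 27.6, Tgfb2 at 11.7 ± 1.77 and Tgfb1 at 3.30 ± 0.59 CPM per kilobase. None of the 17 tested genes of these 4 lists was called variable by edgeR, and 2 (Itgav and Itga8, singled out for this after their values were seen) had an unadjusted p under 0.05.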

How the data were processed

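The deposited table held raw counts per gene, whole numbers with no normalization; HTSeq 0.5.3, DESeq2 1.22.1 and mm10 are named in the submitters' processing notes without roles. The aligner and strand setting are not given in the sources used here. Per the labels' protocols, 2 ng of RNA was amplified over 12 cycles. Counter rows for unassigned reads (45.6%, 39.1% and 39.6% of libraries 1, 2 and 3) were left out. TMM in edgeR 4.0.16 (R 4.3.3) scaled the library totals, with filterByExpr at a minimum count of 10. A count of 0 allows 3 counts, or 0.152, 0.101 and 0.116 CPM. Exon lengths, transcript G+C content and coordinates came from GENCODE M21 (GRCm38), matched on 98.9% of gene identifiers. The goodness-of-fit test was tested on simulated data: with 14409 genes it recovered 124 of 200 genes changed 8-fold, with 4 false calls. No column lacked a sample. Amplified reads are not independent molecules, so intervals and floors cover counting error only.

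The members and lists were chosen with earlier results of these data known. Every member was named. From each pathway list the 3 genes highest per kilobase and those called variable were named, and those under 1 CPM by name only. Acta2, Myh11, Col1a2, Lama1, Slc47a1 and Ptgds were added beside results. Alternatives were DESeq2 1.42.0 size factors, plain totals, other filters, dispersion, length and pseudocount, offsets for G+C content and length, and leaving out each library.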

Additional observations from a re-analysis of the deposited data

How the results depend on the processing

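The number of the 10 genes called variable was 0 under all 9 alternatives tried. The number over all genes (63) was 134 with no filter on low counts, and it was 12 to 28 across the 3 fits that each left out 1 library, which had fewer samples. Requiring on average 10 counts gave 181 and offsets for G+C content and length gave 98, both chosen after seeing the data; the cause of these changes was not tested. The share of gene counts taken by the 10 genes (1.08%) was 1.58% per kilobase of exon, 0.312% without Mfap4 (chosen after seeing the data), and 0.905% to 1.24% when each library was left out. All 10 differences within classes kept their direction under every alternative listed for them, and the number of separated neighbours was 6 or 7. No paired analysis was possible because all libraries belong to 1 group. Depth limited Fbn2, which had at most 30 counts in a library.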

Other observations

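Of the 46 tested pathway genes, 17 (37.0%) were highest in library 1 and lowest in library 3, as were Mfap2, Mfap4 and Mfap5, against 17.7% of all tested genes. They included 3 of 3 genes of the elastin receptor complex, 4 of 5 elastin-degrading proteases, 2 of 4 lysyl oxidases, 2 of 4 EMILIN genes and 2 of 5 genes for proteoglycans and fibronectin. In the other lists it was 2 of 9 ADAMTS and ADAMTSL genes, 1 of 4 latent TGF-beta binding proteins, 1 of 3 other fibulins, 0 of 6 integrin subunits and 0 of 3 TGF-beta ligands. This count was made after the values were seen and was not tested. It was made without removing the trend with G+C content. With that content, library 1 against the others had a Spearman coefficient of 0.608, and library 2 against library 3 one of -0.234. How far the order of these 17 genes went with G+C content was not tested.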
